A study of Homo sapiens with 24 samples.

Results

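K562 cells, an established human erythroleukaemia line, were compared between a pair of sgRNAs that were both directed at eHDAC6, a regulatory element of the GATA1 and HDAC6 neighbourhood on the X chromosome. Members were the libraries labelled eHDAC6-Guide1 (3 replicates) and eHDAC6-Guide2 (3 replicates), 6 of the 24 libraries in the series, and the fit held 12364 of the table's 21925 entries, those left by a filter for low counts. In all groups the cells expressed dCas9-KRAB, in which a cleavage-dead Cas9 carries the KRAB repressor domain, from a doxycycline-inducible promoter, and doxycycline was given for 24 hours before 10000 cells were lysed for each library. Each culture carried 1 sgRNA: eHDAC6-Guide1 or eHDAC6-Guide2, GATA1TSS-Guide1 or GATA1TSS-Guide2 for the GATA1 transcription start site (6 libraries), or 1 of 4 non-targeting controls, NC-Guide1 to NC-Guide4 (12 libraries). The sgRNA sequences and target coordinates were not given in the sources used here. Polyadenylated RNA was sequenced, so fewer cells of a type and less RNA per cell cannot be told apart. The p-values below measure the spread between replicate cultures of 1 sgRNA and carry no information on how sgRNAs to 1 element vary in general.

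GATA1 is the zinc-finger transcription factor that drives erythroid differentiation, and globin, heme and red cell membrane genes are among its targets. The integrated stress response is a separate system: kinases that sense amino acid shortage, unfolded protein or heme deficiency phosphorylate the initiation factor eIF2, which raises the translation of the transcription factor ATF4, and ATF4 with C/EBP partners raises genes for amino acid synthesis, amino acid uptake and tRNA charging. An erythroid cell uses both systems, since hemoglobin synthesis consumes amino acids and heme.

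The 6 libraries were alike in depth and in their overall profile. Total counts ran between 11426981 and 15525058 per library, against a median of 13479250.5 over the series, and TMM scaling factors between 0.99 and 1.02. Pearson's r of log2 CPM (counts scaled to a common library total of 1e+06) across genes was between 0.9903 and 0.9921 for libraries of the same sgRNA and between 0.9889 and 0.9924 for libraries of different sgRNAs. The first principal component, with 26.7% of the variance, placed the eHDAC6-Guide1 libraries at -2.3, 20.2 and 4.09 and the eHDAC6-Guide2 libraries at -11.1, -3.28 and -7.64. Erythroid genes were present throughout, but HBM, CD36 and BCL11A were under 1 CPM in all 6 libraries. Of the 15 myeloid markers measured 8 were under 1 CPM in every library, among them MPO, ELANE and CD14, and so were 8 of 12 lymphocyte markers, among them CD79A and MS4A1, and COL1A2, DCN, ACTA2 and CDH1 of 10 fibroblast and epithelial markers. Other members of these lists were expressed with both sgRNAs. SPI1 had 111 to 115 CPM with eHDAC6-Guide1 and 116 to 124 CPM with eHDAC6-Guide2, and LYZ 78.9 to 87.6 CPM with eHDAC6-Guide1 and 72.7 to 88.0 CPM with eHDAC6-Guide2. CD3D had 17.7 to 31.7 CPM with eHDAC6-Guide1 and 19.4 to 25.4 CPM with eHDAC6-Guide2. The keratin gene KRT8 had 400.3 to 497 CPM with eHDAC6-Guide1 and 424 to 497 CPM with eHDAC6-Guide2, and EPCAM 56.0 to 61.6 CPM with eHDAC6-Guide1 and 60.9 to 70.8 CPM with eHDAC6-Guide2.

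GATA1 itself (hg19 X:48644982-48652717, plus strand) was close to equal with the pair of sgRNAs. It had 254, 242 and 247 CPM with eHDAC6-Guide1, against 255, 256 and 266 CPM with eHDAC6-Guide2. The groups did not overlap but lay side by side, and both were below every one of the 12 NC libraries, which ran between 276 and 391 CPM with a median of 369. The means were 247 ± 6.24 CPM with eHDAC6-Guide1 and 259 ± 6.22 CPM with eHDAC6-Guide2 (SD, n = 3 each). The log2 difference of eHDAC6-Guide1 over eHDAC6-Guide2 was -0.08 (SE 0.06, 95% interval -0.20 to 0.05, edgeR quasi-likelihood test, adjusted p = 0.898). An exact two-sided permutation test over the 6 libraries gave p = 0.1, the smallest that 3 against 3 libraries allow. Relative to the mean of the NC sgRNAs, GATA1 stood at -0.55 on the log2 scale with eHDAC6-Guide1 (edgeR adjusted p = 0.000313) and at -0.48 with eHDAC6-Guide2 (edgeR adjusted p = 0.00062).

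HDAC6, the cytoplasmic deacetylase gene whose start lies 15505 bases from that of GATA1, had 144, 138 and 148 CPM with eHDAC6-Guide1, against 141, 121 and 134 CPM with eHDAC6-Guide2. These ranges overlapped, and the log2 difference was 0.11 (SE 0.07, 95% interval -0.03 to 0.25, edgeR adjusted p = 0.791, exact permutation p = 0.2). Relative to the mean of the NC sgRNAs, HDAC6 stood at -0.28 with eHDAC6-Guide1 (edgeR adjusted p = 0.0254) and at -0.40 with eHDAC6-Guide2 (edgeR adjusted p = 0.00254). Against replicates 2 and 3 of NC-Guide3 and NC-Guide4 alone, it was not called with either sgRNA. The values there were -0.17 with eHDAC6-Guide1 (edgeR adjusted p = 0.39) and -0.28 with eHDAC6-Guide2 (edgeR adjusted p = 0.0656). In the 1 Mb on either side of the GATA1 start lay the starts of 73 other genes, of which 66 were tested and 0 passed. Their median log2 difference was -0.04. Many of the 66 are entries of the GAGE family, all below 0, and their reads may be shared. GAGE12C, GAGE12E, GAGE12G and GAGE12H had the same value (-0.10), so the sign of the median is not that of separate genes. The smallest edgeR adjusted p was 0.481, that of the RNA-binding protein gene RBM3 (0.16, 95% interval 0.03 to 0.29). The lysine methyltransferase gene SUV39H1 stood at 0.03, WAS, the Wiskott-Aldrich syndrome gene, at 0.13, and the kinase gene PIM2 at 0.09. Median log2 differences by chromosome, over 1 to 19 and X, lay between -0.02 (X) and 0.03 (4).

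**Figure D1:**
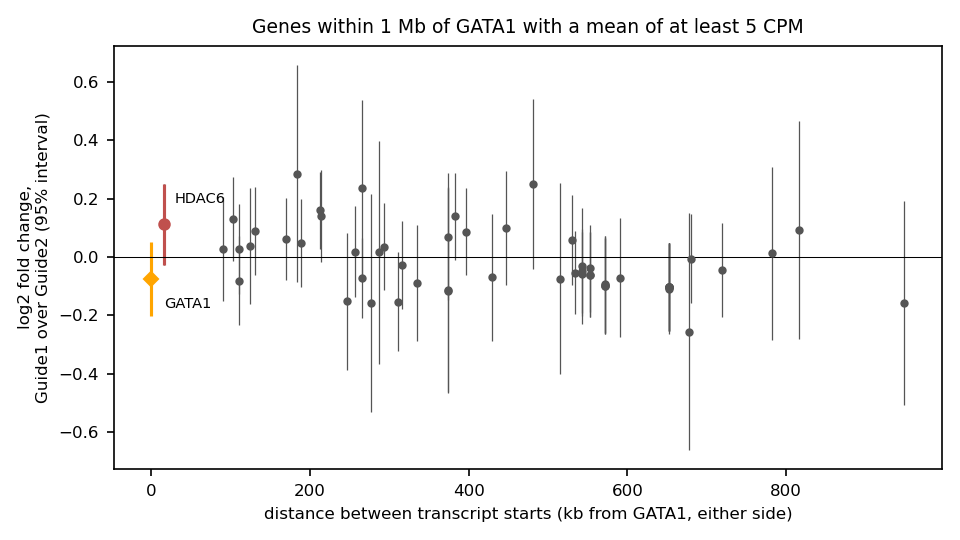
Log2 difference of eHDAC6-Guide1 over eHDAC6-Guide2 (y axis, points, with bars for the 95% interval from the edgeR fit) against the distance between transcript starts in kb from GATA1, upstream or downstream alike (x axis), for 57 genes within 1 Mb with a mean of at least 5 CPM. Those points lie between -0.26 and 0.29, with GATA1 at -0.08 and HDAC6 at 0.11. Many points are entries of the GAGE family, several with the same values.

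With GATA1 this close, 73 of 12364 tested genes differed between the sgRNAs at an edgeR adjusted p under 0.05, which is 0.590% of the genes tested. Higher with eHDAC6-Guide1 were 38 genes (0.307%) and lower 35 (0.283%), while 933 genes had an unadjusted p under 0.05. The changes were small: the median was 0.44 among the rises and -0.51 among the falls on the log2 scale, and 1 rise and 2 falls exceeded 1. The groups did not overlap in 37 of the 38 rises and in all 35 falls; among all genes tested, 6.78% had every eHDAC6-Guide1 library above every eHDAC6-Guide2 library and 5.23% had every one below. Of the 38 rises 16 stood in the list of the integrated stress response, and 25 in that list or those for cytosolic aminoacyl-tRNA synthetases and amino acid transporters, both drawn up with values known. Of the 35 falls 9 stood in the erythroid lists, among them embryonic, fetal and adult alpha globins. The number of calls depended on single libraries and on the fit: it was 31 without eHDAC6-Guide1 replicate 3 and 38 without eHDAC6-Guide2 replicate 3. In a fit that took the spread from all 24 libraries 2 genes passed, SLC4A1 and AQP1.

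**Figure D2:**
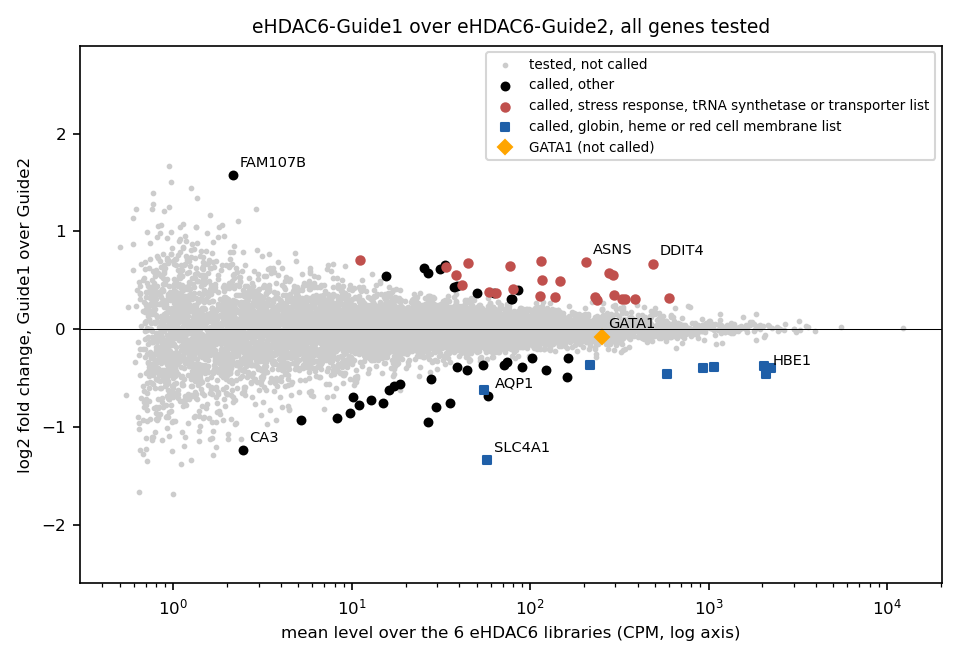
Log2 difference of eHDAC6-Guide1 over eHDAC6-Guide2 (y axis) against the mean level over the 6 libraries in CPM (x axis, log scale), 1 point per tested gene, grey where not called; called genes are red (stress response, synthetase or transporter lists), blue squares (erythroid lists) or black (others). The 38 called rises and 35 called falls lie above and below a cloud whose median is close to 0, and SLC4A1 at -1.34 stands below the other falls that have over 5 CPM.

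The list of the integrated stress response had the most rises. Of its 25 genes 20 were in the table and 19 were tested; 16 of the 19 rose and the other 3, PSPH (0.23), GPT2 (0.39) and CHAC1 (0.57), had positive values that did not pass. The median log2 difference over the 19 was 0.55, with a range of 0.23 to 0.71, against 0.00 over all genes tested. Some members overlap a gene on the other strand, and whether strand was used in counting was not given in the sources used here; their reads may thus be shared, which applies to DDIT3 and MARS, which overlap each other, and to ATF5 and SLC7A11. With all 24 libraries in the fit 0 of the 19 passed, and 8 passed without eHDAC6-Guide1 replicate 3.

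Among the enzymes of amino acid synthesis, ASNS, which makes asparagine (hg19 7:97481429-97501854), had 249, 240 and 276 CPM with eHDAC6-Guide1, against 166, 159 and 149 CPM with eHDAC6-Guide2. The sgRNAs were separated by more than the spread within either, and the log2 difference was 0.68 (SE 0.07, edgeR adjusted p = 6.35e-08). All 6 values were low beside the NC libraries, whose range was 253 to 1113 CPM and median 867, and 1 eHDAC6-Guide1 library lay inside that range. PSAT1, an aminotransferase of the serine pathway, had 90.9, 89.7 and 103 CPM with eHDAC6-Guide1, against 61.1, 55.2 and 64.2 CPM with eHDAC6-Guide2 (log2 difference 0.64, SE 0.08, edgeR adjusted p = 2.33e-06). PHGDH, the first enzyme of that pathway, rose by 0.50, and CTH, which makes cysteine from cystathionine, by 0.55. MTHFD2 (0.32) and ALDH1L2 (0.63), both of mitochondrial folate metabolism, and PCK2 (0.45), the mitochondrial phosphoenolpyruvate carboxykinase, rose with them. ALDH1L2 was the 1 rise whose groups overlapped, with 44.7, 29.0 and 49.2 CPM with eHDAC6-Guide1, against 32.9, 22.4 and 23.7 CPM with eHDAC6-Guide2.

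The regulators in the list rose as well. DDIT4, an inhibitor of mTORC1 signalling, had 538, 634 and 628 CPM with eHDAC6-Guide1, against 337, 398 and 388 CPM with eHDAC6-Guide2, with no overlap (log2 difference 0.67, SE 0.07, edgeR adjusted p = 4.67e-07). SESN2, another stress-induced inhibitor of mTORC1, rose by 0.32. The transcription factors ATF5 (0.70), DDIT3, also known as CHOP (0.41), and CEBPG (0.36) rose; ATF5 was the most scattered of them, with 141, 107 and 177 CPM with eHDAC6-Guide1, against 89.9, 86.3 and 85.0 CPM with eHDAC6-Guide2, and it did not pass in DESeq2. INHBE, an inhibin subunit gene, had 10.7, 12.1 and 18.9 CPM with eHDAC6-Guide1, against 9.14, 8.996 and 7.16 CPM with eHDAC6-Guide2. Its groups did not overlap, but its log2 difference of 0.71 barely passed (edgeR adjusted p = 0.0495), and it failed in 7 of 13 alternative fits.

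Several transporters that bring amino acids into the cell rose. SLC7A5, the large neutral amino acid transporter, had 325, 316 and 349 CPM with eHDAC6-Guide1, against 199, 232 and 232 CPM with eHDAC6-Guide2, with no overlap (log2 difference 0.57, SE 0.07, edgeR adjusted p = 2.33e-06). Its partner chain SLC3A2 rose by 0.30. SLC7A11, the cystine importer, had 54.0, 52.9 and 58.2 CPM with eHDAC6-Guide1, against 37.4, 33.0 and 32.5 CPM with eHDAC6-Guide2 (log2 difference 0.67, SE 0.09, edgeR adjusted p = 1.46e-05), and the overlapping antisense entry SLC7A11-AS1 moved with it (0.61), so the reads of these 2 entries may be shared. The glutamine transporter SLC1A5 (0.31), the neutral transporter SLC1A4 (0.38) and the cationic transporter SLC7A1 (0.34) made up the rest of the 6 rises among 17 transporters tested, whose median was 0.17. SLC38A2, a glutamine transporter that is an ATF4 target in other settings, stood at 0.01, and SLC7A6 at -0.18.

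Of 17 cytosolic aminoacyl-tRNA synthetases, the enzymes that charge tRNAs with their amino acids, 6 rose, with a list median of 0.21. WARS, for tryptophan, had 331, 326 and 381 CPM with eHDAC6-Guide1, against 238, 225 and 238 CPM with eHDAC6-Guide2, with no overlap (log2 difference 0.56, SE 0.07, edgeR adjusted p = 2.33e-06). CARS, for cysteine, had 176, 170 and 173 CPM with eHDAC6-Guide1, against 125, 111 and 131 CPM with eHDAC6-Guide2, also with no overlap (0.50). MARS (0.35), AARS (0.32), GARS (0.31) and YARS (0.31), for methionine, alanine, glycine and tyrosine, rose too; YARS overlaps S100PBP on the other strand. IARS and TARS had values of 0.22 each that did not pass, while VARS (0.02), HARS (-0.09) and FARSA (-0.18) were at or below 0. Of 15 mitochondrial synthetases, which charge tRNAs for the organelle's own ribosomes, 0 passed in edgeR and the median was 0.03. These synthetase and transporter lists were drawn up after the data had been seen.

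**Figure D3:**
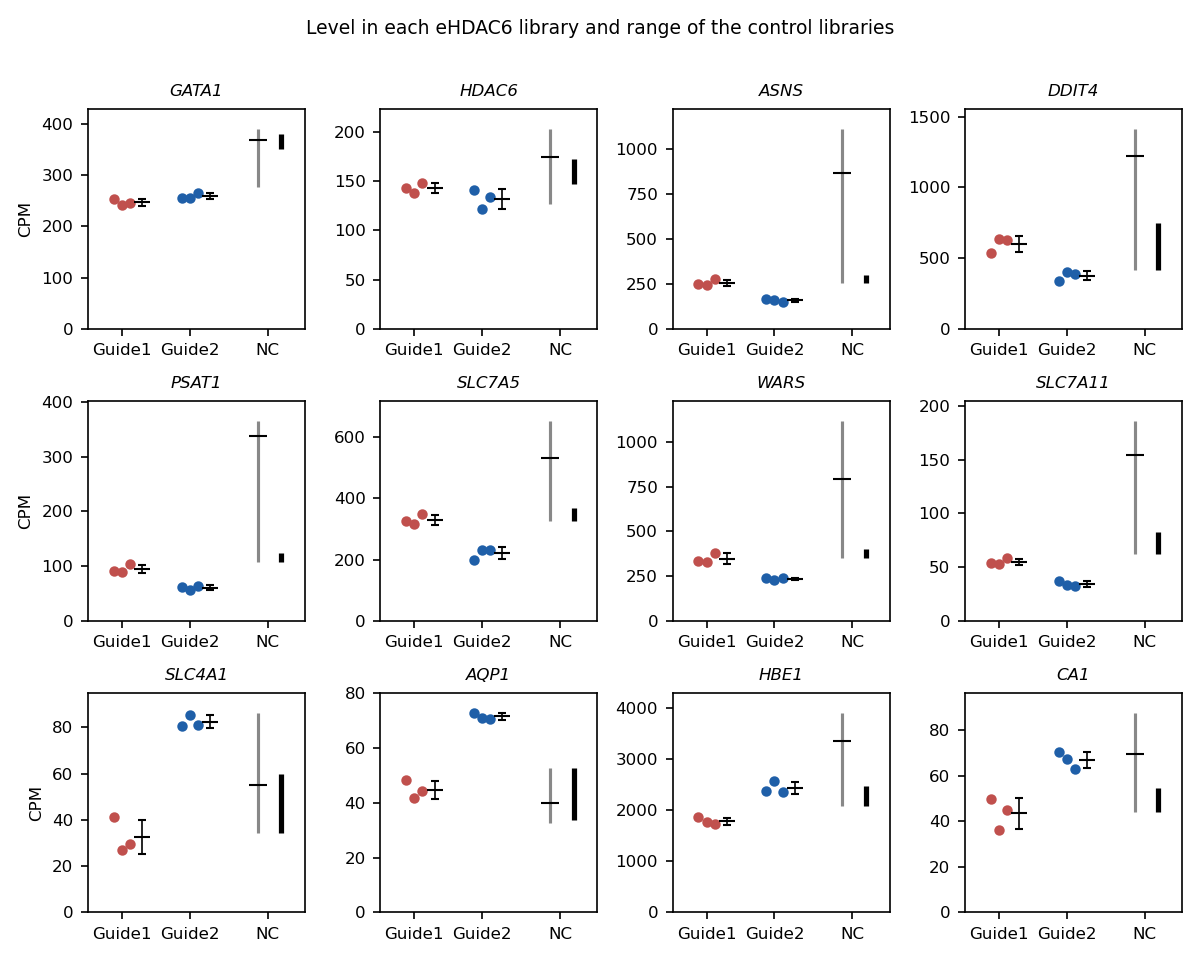
CPM (y axis, linear, starting at 0) of 12 genes: points are the 3 replicates of eHDAC6-Guide1 (red) and of eHDAC6-Guide2 (blue), each with its mean and SD, the grey line is the range of the 12 NC libraries with a dash for their median, and the thick black line the range of the 4 NC libraries from replicates 2 and 3 of NC-Guide3 and NC-Guide4. ASNS, DDIT4 and SLC7A5 were higher with eHDAC6-Guide1 and SLC4A1, AQP1 and HBE1 lower, whereas GATA1 values lay side by side.

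Promoter windows were read for the rises because ATF4 and C/EBP partners bind a composite element. The motif searched, on both strands, was TGATGNAA, chosen after the data had been seen, in RefSeq windows (GRCh38.p14) of 300 bases, 250 before the start and 50 after it. A window was matched for 31 of the 38 rises (81.6%), and 11 of those 31 genes (35.5%) held the motif in any window. Among all tested genes with a window it was 247 of 9371 (2.64%). The rises had 1.77 windows per gene and all tested genes 1.42. Of the 16 rises in the integrated stress response list 13 had a window, and 3 of those 13 (23.1%) held the motif. Only 45.7% of the falls had a window, so no share is given for them. The 3 windows below are shown because they belong to an amino acid synthesis gene, a synthetase and a transporter that rose. For each gene the window with the most matches was taken, and the other windows of ASNS and SLC1A5 held no match. Capitals mark the match, which lies 68, 187 and 97 bases before the transcript start of that window. All 3 genes are on the minus strand, and each sequence runs 5′ to 3′ along its gene.
ASNS, chr7:97872359-97872658: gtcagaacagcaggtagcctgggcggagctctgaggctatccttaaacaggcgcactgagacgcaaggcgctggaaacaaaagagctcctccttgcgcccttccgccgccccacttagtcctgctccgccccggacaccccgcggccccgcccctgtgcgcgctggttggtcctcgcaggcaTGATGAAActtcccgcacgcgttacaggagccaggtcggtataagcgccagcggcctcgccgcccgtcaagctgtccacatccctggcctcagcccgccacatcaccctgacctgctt
AARS, chr16:70289457-70289756: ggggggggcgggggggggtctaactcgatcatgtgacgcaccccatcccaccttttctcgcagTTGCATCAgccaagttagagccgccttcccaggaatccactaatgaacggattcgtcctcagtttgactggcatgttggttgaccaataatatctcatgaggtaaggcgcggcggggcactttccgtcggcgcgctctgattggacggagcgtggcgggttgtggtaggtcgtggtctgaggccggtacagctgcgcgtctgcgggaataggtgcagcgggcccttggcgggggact
SLC1A5, chr19:46784765-46785064: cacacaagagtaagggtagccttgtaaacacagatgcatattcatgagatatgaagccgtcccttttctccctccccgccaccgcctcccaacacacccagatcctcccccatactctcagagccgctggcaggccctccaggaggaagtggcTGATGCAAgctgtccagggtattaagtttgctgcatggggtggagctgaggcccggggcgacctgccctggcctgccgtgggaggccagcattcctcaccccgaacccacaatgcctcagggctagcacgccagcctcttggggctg
In AARS the match TTGCATCA is on the opposite strand of the gene and reads TGATGCAA there. A match describes the letters of the window and is not a bound site.

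Among the falls, the gene with the smallest p was SLC4A1, the band 3 anion exchanger of the red cell membrane (hg19 17:42325758-42345502, minus strand). It had 41.0, 27.0 and 29.4 CPM with eHDAC6-Guide1, against 80.4, 85.5 and 81.2 CPM with eHDAC6-Guide2. The highest eHDAC6-Guide1 library was below the lowest eHDAC6-Guide2 library by a wide margin, and the means were 32.5 ± 7.48 CPM with eHDAC6-Guide1 and 82.4 ± 2.74 CPM with eHDAC6-Guide2 (SD, n = 3 each). The log2 difference was -1.34 (SE 0.10, edgeR adjusted p = 4.90e-11), which made SLC4A1 2.53-fold lower with eHDAC6-Guide1, and it passed in all 13 alternative fits with values between -1.55 and -1.23. The NC libraries ran between 34.2 and 86.3 CPM with a median of 55.2, so the sgRNAs fell on opposite sides of it. Of 11 genes with a start within 100 kb of that of SLC4A1, 9 were tested and 0 passed, with values between -0.12 and 0.16.

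The globin genes were lower with eHDAC6-Guide1 in small steps. Of 10 tested members of the list, which holds the globins and the alpha globin chaperone AHSP, 6 fell; the median log2 difference was -0.40 and the range -0.63 to 0.10. HBE1, the embryonic beta-type globin (hg19 11:5289580-5291373), had 1867, 1766 and 1724 CPM with eHDAC6-Guide1, against 2376, 2567 and 2353 CPM with eHDAC6-Guide2, with no overlap (log2 difference -0.45, SE 0.07, edgeR adjusted p = 0.000125). HBZ, the embryonic alpha-type globin, had 528, 499 and 454 CPM with eHDAC6-Guide1, against 615, 690 and 718 CPM with eHDAC6-Guide2 (-0.46, SE 0.07, edgeR adjusted p = 0.000143). The fetal pair HBG1 (-0.38) and HBG2 (-0.39) and the alpha pair HBA1 (-0.38) and HBA2 (-0.40) fell by like amounts, but each pair is near-identical in sequence and its reads may be divided between the copies.

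AHSP (-0.63) and the delta globin HBD (-0.49), both under 15 CPM, did not pass, and neither did HBQ1 (-0.01) or the adult HBB (0.10), which was at 1.33 CPM or less in the 6 libraries. Summed over the list, globin transcripts made 8167, 7697 and 7455 CPM with eHDAC6-Guide1, against 9873, 10810 and 10040 CPM with eHDAC6-Guide2, and the sums did not overlap. The beta globin pseudogene HBBP1 fell too (-0.37). The 6 calls became 0 in the fit on all 24 libraries and between 3 and 6 with single libraries left out.

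Few other erythroid genes passed. The heme synthesis list had a median of -0.12 over 11 tested genes; ALAS2 (-0.21) and FECH (-0.23), the first and last enzymes of the pathway in erythroid cells, did not pass. Of 21 red cell membrane and blood group genes 2 fell, SLC4A1 and the carbonic anhydrase CA1, and the median was -0.10. CA1 had 49.5, 36.1 and 44.9 CPM with eHDAC6-Guide1, against 70.2, 67.4 and 62.8 CPM with eHDAC6-Guide2, with no overlap (-0.62, SE 0.09, edgeR adjusted p = 7.09e-05).

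The beta spectrin gene SPTB stood at -0.06 and ankyrin (ANK1) at -0.05. Of 13 regulators of erythroid genes 0 passed, and their median was -0.08. KLF1, the erythroid Krüppel-like factor, had 160, 136 and 157 CPM with eHDAC6-Guide1, against 168, 171 and 177 CPM with eHDAC6-Guide2, and its log2 difference of -0.20 did not pass (edgeR adjusted p = 0.319). TAL1 stood at -0.17, MYB at 0.01 and LMO2 at -0.01. PKLR, which encodes the pyruvate kinase of liver and red cells and stood in none of the lists, fell by 0.49 on the log2 scale; it overlaps HCN3 on the other strand.

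The remaining falls joined genes of several functions. AQP1, a water channel of red cells and of epithelia, had 48.2, 41.6 and 44.3 CPM with eHDAC6-Guide1, against 73.0, 71.0 and 70.7 CPM with eHDAC6-Guide2, with no overlap (log2 difference -0.68, SE 0.08, edgeR adjusted p = 1.64e-06). The NC libraries had 32.7 to 52.9 CPM, so the eHDAC6-Guide1 libraries were inside their range and the eHDAC6-Guide2 libraries above it. ACP5, the tartrate-resistant acid phosphatase, had 21.1, 19.9 and 24.4 CPM with eHDAC6-Guide1, against 43.8, 32.3 and 36.8 CPM with eHDAC6-Guide2 (-0.80, SE 0.11, edgeR adjusted p = 4.25e-05). PRG2, the eosinophil granule major basic protein, had 13.5, 14.6 and 27.0 CPM with eHDAC6-Guide1, against 42.3, 33.3 and 29.9 CPM with eHDAC6-Guide2, where the highest library of the one sgRNA came close to the lowest of the other (-0.95), and it did not pass in DESeq2. ESPN, which encodes the actin-bundling espin (-0.75), fell likewise but not in DESeq2 or without eHDAC6-Guide2 replicate 3.

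Falls at low levels were LRRTM1 (-0.73), a neuronal adhesion gene, AQP3 (-0.76), an aquaglyceroporin, P2RX5 (-0.77), an ATP-gated channel, and COL1A1 (-0.85), a fibrillar collagen chain, with XACT (-0.91), a noncoding RNA of the X chromosome, DLX4 (-0.92), a homeobox gene, and CKMT1B (-0.70), a mitochondrial creatine kinase with a near-identical copy. Means over the 6 libraries were between 5 and 20 CPM for each of these. LRRTM1 was kept in all alternatives except the fit on 24 libraries; COL1A1 was lost without eHDAC6-Guide1 replicate 3, P2RX5 without eHDAC6-Guide2 replicate 3, and AQP3, XACT, DLX4 and CKMT1B in 3 to 5 of the 13 fits. P2RX5 shares exons with the readthrough entry P2RX5-TAX1BP3. COL1A1 was the 1 fall among 5 tested fibroblast and epithelial markers. The summed level of that marker list was 990 to 1121 CPM with eHDAC6-Guide1 and 1036 to 1153 CPM with eHDAC6-Guide2, ranges that overlap. The part of other cells in the COL1A1 difference was not tested.

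Some rises lay outside the amino acid lists. SLC16A9, a monocarboxylate transporter family gene, had 32.5, 31.3 and 32.6 CPM with eHDAC6-Guide1, against 23.0, 21.4 and 20.1 CPM with eHDAC6-Guide2, with no overlap (log2 difference 0.57, SE 0.10, edgeR adjusted p = 0.00187). TUBE1, epsilon tubulin (0.62), overlaps FAM229B on the other strand and was lost without eHDAC6-Guide2 replicate 3. AKNA, an AT-hook protein (0.66), had 38.8, 31.8 and 52.3 CPM with eHDAC6-Guide1, against 27.4, 23.3 and 26.8 CPM with eHDAC6-Guide2, and was lost without either sgRNA's replicate 3. SOCS3, a feedback inhibitor of cytokine signalling named after its values were seen, had 42.8, 42.6 and 42.9 CPM with eHDAC6-Guide1, against 29.2, 32.7 and 32.9 CPM with eHDAC6-Guide2 (0.43, edgeR adjusted p = 0.0131). The largest rise of any gene was FAM107B (1.57, SE 0.33), at 3.27, 3.80 and 2.66 CPM with eHDAC6-Guide1, against 1.28, 1.03 and 0.905 CPM with eHDAC6-Guide2; neither tested gene within 100 kb of its start passed.

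Lists for the cell cycle, ribosomes and most other programmes gave 0 calls in edgeR. The median log2 differences were 0.01 for 15 S phase genes, 0.03 for 14 genes of G2 and M phase and 0.02 for 33 cytosolic ribosomal protein genes. Of 9 iron uptake and storage genes 0 passed, with a median of -0.02. Among NRF2 targets, the genes of the oxidative stress response, 1 of 9 passed, which was SLC7A11 again. Heat shock genes and chaperones (median -0.09 over 11), p53 targets (0.09 over 12) and interferon response genes (-0.02 over 12) had 0 calls as well. Metallothioneins with their regulator MTF1 had a median of 0.34 over 4 tested genes, none of which passed.

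**Figure D4:**
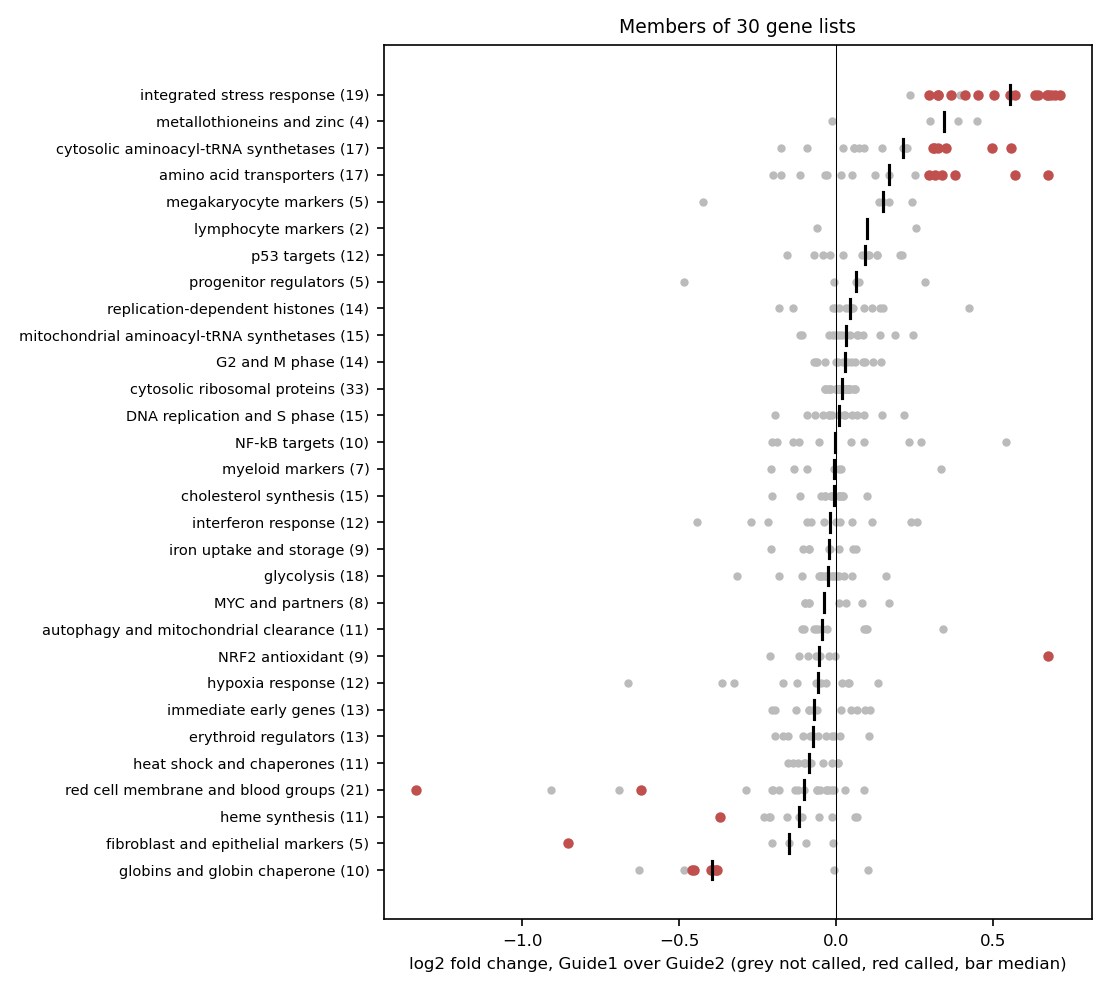
Log2 difference of eHDAC6-Guide1 over eHDAC6-Guide2 (x axis) for each tested member of the 30 gene lists (rows, number tested in brackets), with called members in red, others in grey and a black bar for the list's median. Members of the integrated stress response list all lie above 0, 16 of 19 of them called, and the globins have 9 of 10 below 0, 6 of them called.

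Each sgRNA was also placed against the NC libraries. The 12 NC libraries were not alike: replicates 2 and 3 of NC-Guide3 and NC-Guide4 stood apart from the other 8, with no batch given in the labels, so values are given against all 12 and against these 4, a subset known from earlier results. The comparisons of both sgRNAs share their controls. Against all 12, 16.7% of 13147 tested genes were called with eHDAC6-Guide1, 9.33% higher and 7.35% lower. With eHDAC6-Guide2 it was 19.2%, 10.3% higher and 8.91% lower. Against the 4 it was 0.389% of 13126 genes with eHDAC6-Guide1, 0.274% higher and 0.114% lower, and 1.70% with eHDAC6-Guide2, 0.945% higher and 0.754% lower.

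The 38 rises were called on these same eHDAC6 libraries, so eHDAC6-Guide2 was below eHDAC6-Guide1 in them by selection. The order of the sgRNAs relative to the controls is thus no separate result. Both had negative medians against the controls. All 3 eHDAC6-Guide2 libraries lay below all 12 NC libraries in 34 of the 38, and all 3 eHDAC6-Guide1 libraries in 4. How often this held among all tested genes was not computed, so these counts have no share to be set against. Against all 12, 30 of the 38 were called lower with eHDAC6-Guide1 (median log2 difference -0.59) and 37 with eHDAC6-Guide2 (median -1.05), and none higher. Against the 4 NC libraries 0 of the 38 were called with eHDAC6-Guide1, with a median log2 difference of -0.06, and 28 were called lower with eHDAC6-Guide2, with a median of -0.51. The list level of the integrated stress response, a mean log2 value relative to all NC libraries, was -0.957, -0.967 and -0.772 with eHDAC6-Guide1, -1.37, -1.43 and -1.42 with eHDAC6-Guide2, between -0.83 and -0.677 in the 4 NC libraries and between 0.05 and 0.68 in the other 8. The difference between the subsets of NC libraries was thus larger than that between the eHDAC6 sgRNAs. The subsets were set apart with earlier results of these data known, so the sizes of these differences are not like for like.

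The 35 falls were likewise called on these libraries with eHDAC6-Guide1 the lower, so the order of the sgRNAs was set by selection. Their medians lay on either side of the controls, which that selection favours. Against all 12, 4 were called higher and 16 lower with eHDAC6-Guide1 (median log2 difference -0.41), and 16 higher and 4 lower with eHDAC6-Guide2 (median 0.39). All 3 eHDAC6-Guide1 libraries lay below all 12 NC libraries in 8 of the 35 and above them in 2. All 3 eHDAC6-Guide2 libraries lay above all 12 in 8. Here too the share among all tested genes was not computed. Against the 4 NC libraries 1 of the 35 was called higher and 0 lower with eHDAC6-Guide1 (median -0.21), and 12 were called higher and 0 lower with eHDAC6-Guide2 (median 0.33). The globin list level was -0.693, -0.699 and -0.755 with eHDAC6-Guide1 and -0.417, -0.292 and -0.428 with eHDAC6-Guide2, against -0.538 to -0.396 in the 4 NC libraries and 0.03 to 0.34 in the other 8. CALB1, the calcium-binding calbindin, named after its values were seen, had 12.8, 15.03 and 10.5 CPM with eHDAC6-Guide1, 17.2, 18.2 and 23.0 CPM with eHDAC6-Guide2 and at most 9.25 CPM in the NC libraries, so it was above the controls with both.

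**Figure D5:**
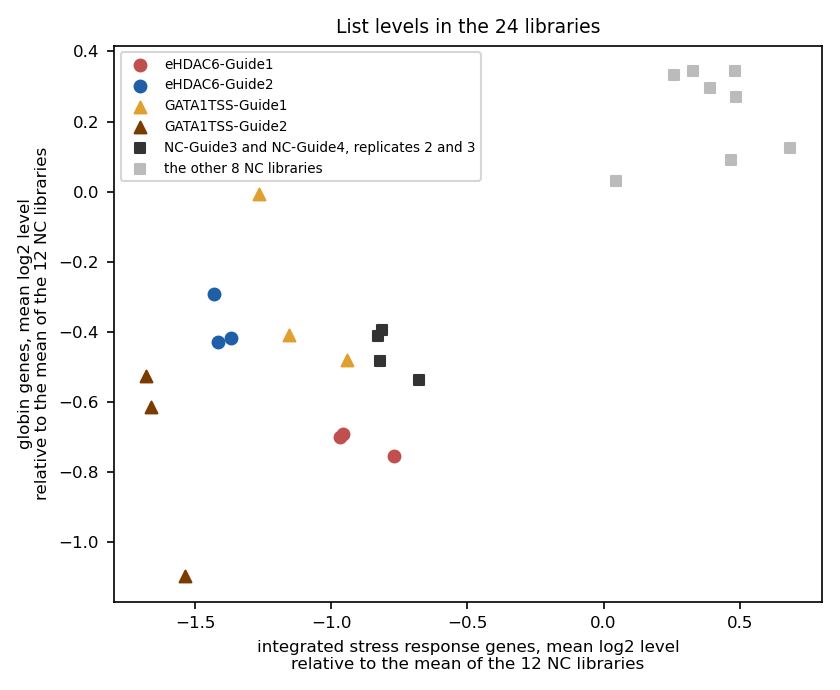
Mean log2 level of the integrated stress response list (x axis) and of the globin list (y axis) in each of the 24 libraries, relative to the mean of the 12 NC libraries. The eHDAC6-Guide1 libraries (red) lie right of and below the eHDAC6-Guide2 libraries (blue), and the 8 NC libraries in light grey lie apart at the upper right.

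Other pairs of sgRNAs give the number of genes called between cultures of different sgRNAs with no target or with unequal GATA1. NC-Guide1 against NC-Guide2, a pair without a target, gave 519 calls (4.21% of 12318 tested, 2.44% higher and 1.78% lower), and NC-Guide3 against NC-Guide4 gave 0 of 12448 in edgeR and in DESeq2, with 145 genes at an unadjusted p under 0.05. NC-Guide3 and NC-Guide4 each joined replicates 2 and 3, from the subset of 4, with a replicate 1 from outside it. The SE for ASNS was 0.55 in that pair, against 0.08 in NC-Guide1 against NC-Guide2. With replicates this unlike, its 0 calls do not show how many genes differ. GATA1TSS-Guide2 against GATA1TSS-Guide1, in which GATA1 differed by -1.10 on the log2 scale, gave 583 calls (4.50% of 12966, 2.51% higher and 1.99% lower). The biological coefficient of variation was 6.87% for the eHDAC6 pair, 10.4% and 14.1% for the NC pairs and 9.35% for the GATA1TSS pair, so the pairs did not have equal power, and the NC-Guide1 against NC-Guide2 count ranged between 0 and 1124 with single libraries left out. The eHDAC6 pair's 73 calls were fewer than those of 2 of these 3 pairs.

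The integrated stress response list differed within other pairs too. Its median was 0.24 between NC-Guide1 and NC-Guide2 (5 of 20 tested higher), -0.02 between NC-Guide3 and NC-Guide4 and -0.52 between GATA1TSS-Guide2 and GATA1TSS-Guide1 (12 of 19 lower). The globin medians for these pairs were 0.04, 0.04 and -0.40 (3 of 10 lower). In the GATA1TSS pair both lists were therefore lower with the same sgRNA, whereas in the eHDAC6 pair the first was higher and the globins lower with eHDAC6-Guide1.

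The eHDAC6 and GATA1TSS pairs share no library. Of genes tested in both, 36 were called in each, which is 49.3% of the eHDAC6 pair's 73 calls and 6.39% of the GATA1TSS pair's 563. The direction was the same in 16 of the 36 and opposite in 20: of the 38 genes higher with eHDAC6-Guide1, 16 were called lower and 1 higher with GATA1TSS-Guide2, and of the 35 lower genes 15 were called lower and 4 higher. SLC4A1 was among those lower in both (-0.90 between GATA1TSS-Guide2 and GATA1TSS-Guide1, edgeR adjusted p = 0.0137). With NC-Guide1 against NC-Guide2 the shared calls were 13, or 17.8% of the 73 and 2.52% of 515, with 8 in the same direction.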

How the data were processed

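The authors deposited raw read counts per gene symbol for each library, and RefSeq gene models whose score column was not used. The submitters' processing notes name SAMtools 0.1.19, Picard, TopHat2 2.0.8, Bowtie2 2.1.0 and hg19. The counting tool and the use of strand were not given in the sources used here, and genes with antisense or shared exons are uncertain. Of 21925 entries 2226 had no count in any library. Positions came from the deposited models, 1-based on hg19.

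Counts were tested with edgeR 4.0.16 (R 4.3.3; quasi-likelihood test, TMM scaling, filterByExpr, sgRNA as group) on the 6 libraries, with Benjamini-Hochberg adjustment over all genes tested and a threshold of 0.05. Comparisons with NC used 1 coefficient per sgRNA over all 24 libraries. Those against the 4 NC libraries were fitted separately, on these 4 and the eHDAC6 and GATA1TSS libraries. DESeq2 1.42.0 was an alternative. Levels are CPM on TMM-scaled totals; errors are SDs over replicates. The edgeR step was tested on simulated data for the eHDAC6 pair only. Named genes were GATA1, HDAC6, the 12 largest rises and falls and the 6 smallest p among called genes with at least 5 CPM and no overlap, up to 4 called members of each list, and neighbours. The comparison, the lists and the subset of 4 NC libraries were chosen with earlier results of these data known, and 3 lists (cytosolic and mitochondrial aminoacyl-tRNA synthetases, amino acid transporters) were drawn up once values had been seen. Replicate numbers were not used as a pairing in the main fit. The correlation of deviations across sgRNAs was 0.103, 0.163 and -0.00831 for the same number. For different numbers it lay between -0.147 and 0.057, and these values do not settle whether the numbers are a pairing. Some items are not reported here. Entries on chromosomes without rows in the table were not analysed here.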

Additional observations from a re-analysis of the deposited data

Results flagged for a closer look

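Among the called genes that the naming rule picked by rank or list, the libraries of the pair of sgRNAs lay on opposite sides of the NC mean in 2. The other called genes were not checked for this. SLC4A1, with a log2 difference of -1.34 (eHDAC6-Guide1 over eHDAC6-Guide2), stood at -0.81 with eHDAC6-Guide1 and at 0.53 with eHDAC6-Guide2 relative to NC, and at -0.45 and 0.89 relative to the 4 NC libraries. SLC16A9, with a log2 difference of 0.57, stood at 0.08 with eHDAC6-Guide1 and at -0.49 with eHDAC6-Guide2 relative to NC, and at 0.19 and -0.38 relative to the 4 NC libraries. The differences between the sgRNAs passed in edgeR (adjusted p = 4.90e-11 for SLC4A1 and 0.00187 for SLC16A9), while the values relative to NC share their controls. Both genes were picked for a difference between these same eHDAC6 libraries, which favours opposite sides. SLC4A1 was called in each comparison with NC except eHDAC6-Guide1 against the 4 (edgeR adjusted p = 0.321). SLC16A9 was not called with eHDAC6-Guide1 (edgeR adjusted p = 0.658, and 0.560 against the 4). With eHDAC6-Guide2 it was called against all NC libraries (edgeR adjusted p = 0.00464) but not against the 4 (0.146).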

How the results depend on the processing

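GATA1 stayed between -0.09 and -0.06 with single libraries left out, and it was not called in any alternative. The 73 calls became 130 with a replicate block, 111 with no filter on low counts and 2 in the fit on all 24 libraries, where 0 genes were higher. Other scalings gave 72 or 73 and DESeq2 73, of which 66 were shared. Leaving out single libraries gave 31 to 87 calls for the pair, 8 to 16 for the integrated stress response list and 3 to 6 for the globins; the 24-library fit gave 0 for both lists. The cause of these shifts was not tested. Not every library correlated best with the same number of the other sgRNA, so the block cannot be read as a known pairing. NC-Guide1 against NC-Guide2 had 519 calls, 1070 in DESeq2, 234 with a replicate block and 0 to 1124 with single libraries left out; NC-Guide3 against NC-Guide4 had 0 throughout. The GATA1TSS pair's 583 calls ranged over 146 to 1083. Against NC, eHDAC6-Guide1 had 2192 calls (51 against the 4 libraries, 875 to 1216 with a library left out) and eHDAC6-Guide2 2521 (223, and 977 to 1536). Over 31 genes, HDAC6 and the 30 called genes that the rule named by rank or list, no direction was reversed in the alternatives run; 34 of 217 values under other settings and 21 of 186 with a library left out no longer passed. Depth limits genes at low levels: the SE of the log2 difference was 0.33 for FAM107B, at 1 to 4 CPM, against 0.07 for HBE1.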
